A study of Homo sapiens with 8 samples.

Results

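The miR-378 and miR-422a family was followed through 6 mature miRNAs, hsa-miR-378a-3p, hsa-miR-378a-5p, hsa-miR-378c, hsa-miR-378d, hsa-miR-378i and hsa-miR-422a, written below without the species prefix. They were chosen by name from the 1780 mature miRNAs with a row in the count matrix, and all 6 had counts. Small RNA had been sequenced from DLD1 and HT29, both established cell lines of human colorectal adenocarcinoma, after 6 days either in 2D, attached to plastic, or as multicellular spheroids (MCS), non-adherent aggregates formed in agarose-coated wells. Each cell line and culture had 2 libraries, which the labels describe as biological replicates, 8 libraries in all. The labels name no drug and no engineered allele in any group. DLD1 cells were seeded at 35000 for 2D and at 7000 per well for MCS, HT29 cells at 100000 and 3500. DLD1 cells were grown in RPMI medium and their libraries made with version 3 of the small RNA kit, HT29 cells in DMEM and with version 2, so that the cell line, its medium and its kit cannot be told apart. A spheroid of cancer cells on agarose holds neither stroma nor vessels.

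A miRNA hairpin is cut into a duplex of 2 arms, named 5p and 3p, and the arm loaded into Argonaute guides it to messenger RNAs that pair with its seed, here bases 2 to 8. The other arm is usually degraded. The hairpin of miR-378a lies in an intron of PPARGC1B, the gene of the transcriptional coactivator PGC-1β, which drives mitochondrial and oxidative metabolism genes. MiR-378a is best known in the control of energy metabolism and of muscle differentiation, and miR-378a-3p and miR-422a have often been described at lower levels in colorectal tumors than in normal mucosa.

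The mature sequences show which members can be told apart by reads and which share a seed. RefSeq, on the GRCh37 build, held 5 of the 6 members, and miR-378d is given by name alone. The seed is in capitals.
miR-378a-3p: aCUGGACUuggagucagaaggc
miR-378a-5p: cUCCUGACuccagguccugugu
miR-378c: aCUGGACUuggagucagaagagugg
miR-378i: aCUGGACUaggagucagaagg
miR-422a: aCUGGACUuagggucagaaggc
The seed CUGGACU was common to miR-378a-3p, miR-378c, miR-378i and miR-422a, and within the RefSeq set it was also that of miR-378b, miR-378f and miR-378h. The 5p arm of miR-378a had a seed of its own, UCCUGAC. Counted from 1 at the 5′ end and read from miR-378a-3p, miR-378c matched the first 20 bases, then carried G21A and C22G and 3 further bases. MiR-378i carried U9A and was shorter by 1 base, and miR-422a carried G10A and A12G. A read that ends at base 20 or before therefore fits miR-378a-3p and miR-378c equally well, and how the authors counted reads that match several mature miRNAs is not given in the sources used here.

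The hairpin of miR-378a is shown because its arms were compared below, with the mature 5p arm (bases 5 to 26) and 3p arm (bases 43 to 64) in capitals and 16 bases between them.
MIR378A: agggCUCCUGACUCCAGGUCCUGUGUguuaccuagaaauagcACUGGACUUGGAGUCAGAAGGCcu
It spans chr5:149112388-149112453 on the plus strand of GRCh37, in intron 1 of PPARGC1B (chr5:149109861-149234585, plus strand), 2527 bases from the start of that gene. MIR378C (chr10:132760851-132760931, minus strand) and MIR422A (chr15:64163129-64163218, minus strand) lie outside annotated genes. MIR378D1, a hairpin of miR-378d (chr4:5925002-5925055, minus strand), is in an intron of C4orf50, on the same strand. MIR378I (chr22:42319226-42319301, minus strand) is in an untranslated exon stretch of TNFRSF13C, the BAFF receptor gene, again on the same strand. The members therefore come from separate loci, and only the arms of miR-378a share a hairpin.

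The libraries held between 10495634 and 26211524 miRNA counts. Replicates lay much closer in DLD1 than in HT29, the fits giving a biological coefficient of variation of 0.193 in the DLD1 fit and 0.521 in the HT29 fit, and the upper quartile factors of the HT29 libraries ran from 0.522 to 1.66. The epithelial markers miR-192-5p, miR-194-5p, miR-215-5p, miR-375 and the miR-200 family were all present, 9 of 9 averaging 10 counts-per-million (CPM) or more in every group, summing to between 73193 and 280366 CPM of the library total. Markers of muscle, where miR-378a is abundant, had a row in the matrix for 6 of 7 listed and summed to between 5.69 and 93.4 CPM. Among them miR-1-3p averaged 1.34 CPM of the library total in DLD1 2D, 9.11 in DLD1 MCS, 36.1 in HT29 2D and 59.7 in HT29 MCS. MiR-133b and miR-206 were at 0 in both DLD1 2D libraries and had at most 2 counts in any other library. Markers of blood, vessel and mesenchyme had a row for 5 of 6 listed and summed to between 8.67 and 97.4 CPM. Most of the sum in DLD1 was miR-126-3p, averaging 82.5 CPM in 2D and 86.4 in MCS. In HT29 MCS most of it was miR-150-5p, averaging 51.0.

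In all 8 libraries miR-378a-3p was by far the most abundant member, followed by miR-378c, miR-378a-5p and miR-378d. The read of a miRNA spans the whole molecule, so counts were compared between members without division by length. Together the 6 members took 0.444% (95% Wilson interval 0.441 to 0.447) and 0.451% (0.448 to 0.453) of all miRNA counts in DLD1 2D replicates 1 and 2. In DLD1 MCS the shares were 0.331% (0.328 to 0.334) and 0.272% (0.270 to 0.275), below both 2D libraries. In HT29 they were 0.0778% (0.0762 to 0.0795) and 0.169% (0.167 to 0.170) in 2D, and 0.205% (0.203 to 0.208) and 0.237% (0.234 to 0.239) in MCS, above both 2D libraries. The interval covers counting error only, and the gap between replicates in HT29 was far wider. In RNA from whole cultures, fewer cells that make a miRNA and less of it per cell cannot be told apart. MiR-378a-3p supplied between 96.9 and 97.9% of these family counts in DLD1 and between 90.3 and 94.3% in HT29.

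To ask how the members responded to spheroid culture, counts were scaled with upper quartile factors and MCS was tested against 2D within each cell line with edgeR's quasi-likelihood test, over miRNAs averaging 10 CPM or more. A miRNA was called when it changed 1.5-fold or more in either direction and its p-value, adjusted by Benjamini-Hochberg over all tested miRNAs, was under 0.05. Log2 fold changes are MCS against 2D, with their standard error (SE). Normalized CPM are CPM of the library total times its factor, scaled within a cell line. In DLD1, miR-378a-3p, miR-378a-5p and miR-378c were abundant enough to be tested, and in HT29 miR-378d was as well. MiR-378i and miR-422a stayed under the limit in both.

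In DLD1, 0 of the 3 tested members were called in MCS, while 143 of all 346 tested miRNAs (41.3%) were. MiR-378a-5p had the largest change of the 3, on the lower side in MCS, miR-378a-3p lay slightly lower, and miR-378c lay higher. At an unadjusted p-value under 0.05 with the same fold rule 1 member passed, miR-378a-5p, against 44.8% of all tested miRNAs. DESeq2 called 1 member, also miR-378a-5p, and edgeR's exact test 0.

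MiR-378a-3p, the guide arm, reached 3908 and 3779 normalized CPM in DLD1 2D (replicates 1 and 2) and 3096 and 3549 in MCS. Both MCS libraries lay below both 2D libraries, by a margin smaller than the spread between the MCS replicates. The group means were 3844 ± 91.1 and 3322 ± 320.1 (SD, n = 2). The log2 fold change was -0.21 (SE 0.24), with an adjusted p of 0.492 by edgeR's quasi-likelihood test.

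MiR-378a-5p, the opposite arm, gave 36.8 and 27.6 normalized CPM in DLD1 2D and 21.8 and 16.2 in MCS, from 248 to 821 counts a library. The cultures did not overlap, the higher MCS library lying below the lower 2D library. The means were 32.2 ± 6.48 and 19.0 ± 3.93 (SD, n = 2), and the log2 fold change was -0.76 (SE 0.33), a level 1.69-fold lower in MCS, which missed the threshold at an adjusted p of 0.0552 by edgeR's quasi-likelihood test. The call depended on the settings: it was made in 8 of 14 alternatives, with adjusted p-values from 0.0160 to 0.230 over all of them. Without 2D replicate 2 and without MCS replicate 1 the log2 fold changes were -1.06 and -1.15 and were called.

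MiR-378c, with the seed of miR-378a-3p, moved the other way, at 48.3 and 45.8 normalized CPM in DLD1 2D and 67.2 and 73.1 in MCS. Both MCS libraries were above both 2D libraries, with means of 47.1 ± 1.74 and 70.1 ± 4.12 (SD, n = 2). The log2 fold change of 0.58 (SE 0.29) fell just short of the fold rule, at 1.49-fold, and the adjusted p was 0.0966 by edgeR's quasi-likelihood test. Of the 3 tested members, 1 thus had both MCS libraries above both 2D libraries and 2 had both below, against 45.4% and 25.4% of all tested miRNAs.

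The 3 rarer members were described without a call in DLD1. MiR-378d stood at 5.93 and 5.82 normalized CPM in 2D and at 8.50 and 11.4 in MCS, from 104 to 174 counts. MiR-378i had 4 and 7 counts in 2D and 8 and 9 in MCS, and miR-422a had 38 and 62 counts in 2D and 34 and 32 in MCS. MiR-378d and miR-378i were thus higher in both MCS libraries on the normalized scale, while the cultures overlapped for miR-422a, at 2.17 and 2.08 normalized CPM in 2D and 1.82 and 2.10 in MCS. Fitted with no filter, their log2 fold changes were 0.76 (SE 0.41), 1.11 (SE 2.18) and -0.12 (SE 0.71), with adjusted p-values of 0.330, 0.848 and 0.957 by the same test.

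**Figure D1:**
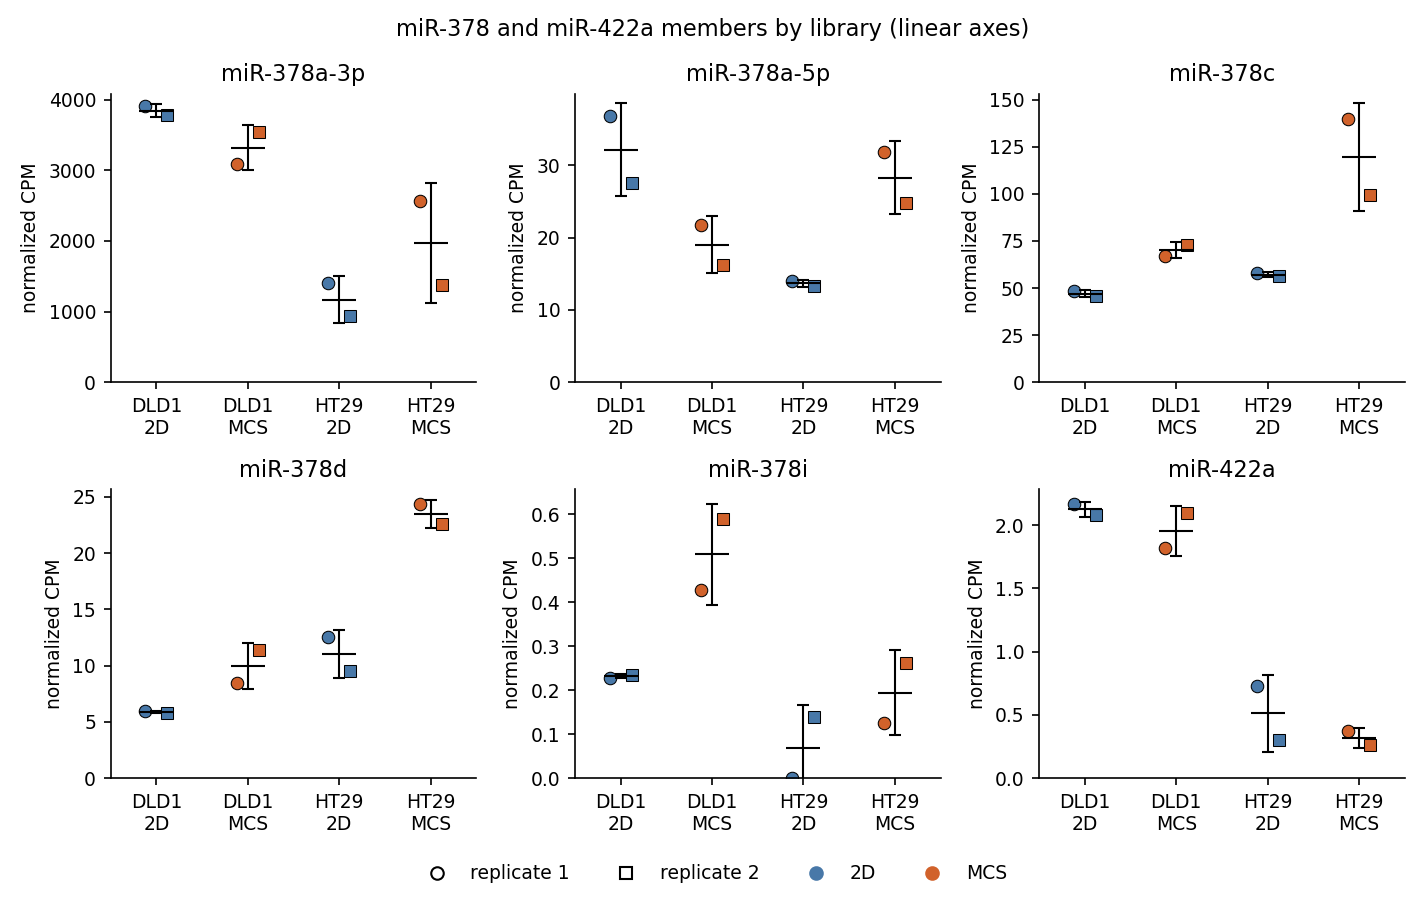
Normalized CPM (linear axes from 0, scaled within each cell line) of each member in the 8 libraries, circles for replicate 1 and squares for replicate 2, blue for 2D and orange for MCS, black bars for the mean and SD (n = 2). MiR-378a-5p was lower in DLD1 MCS (21.8 and 16.2) than in DLD1 2D (36.8 and 27.6) and higher in HT29 MCS (31.9 and 24.7) than in HT29 2D (14.0 and 13.3).

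In HT29 all 4 tested members had positive log2 fold changes, between 0.75 and 1.09, and 0 were called. No miRNA at all was called in this cell line by edgeR's quasi-likelihood test (0 of 301, 0%), 12 of 301 passed at an unadjusted p-value under 0.05 with the fold rule (3.99%), and none of the 4 members was among them. DESeq2 called 11 miRNAs and edgeR's exact test 5, and neither called a member. None of these fits had a term for the replicate number, and the count of members called changed when one was added, as given with the alternatives.

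MiR-378a-3p gave 1404 and 936 normalized CPM in HT29 2D and 2573 and 1374 in MCS. The lower MCS library lay just under the higher 2D library, so the cultures overlapped on this scale. The log2 fold change was 0.75 (SE 0.52, adjusted p 0.977 by edgeR's quasi-likelihood test). It was 0.20 without MCS replicate 1, the library with the highest value.

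MiR-378a-5p gave 14.0 and 13.3 normalized CPM in HT29 2D and 31.9 and 24.7 in MCS, from 77 to 661 counts, and both MCS libraries were above both 2D libraries. The log2 fold change was 1.05 (SE 0.43), 2.07-fold, with a p of 0.0589 before and 0.975 after adjustment by edgeR's quasi-likelihood test. This was the direction opposite to that in DLD1.

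MiR-378c was at 58.0 and 56.4 normalized CPM in HT29 2D and at 139.8 and 99.4 in MCS, again without overlap (log2 fold change 1.06, SE 0.48, adjusted p 0.977 by edgeR's quasi-likelihood test). MiR-378d behaved likewise, at 12.6 and 9.56 in 2D and 24.4 and 22.6 in MCS (log2 fold change 1.09, SE 0.43, adjusted p 0.975 by the same test). On the normalized scale 3 of the 4 tested members thus had both MCS libraries above both 2D libraries, against 17.9% of all tested miRNAs. On CPM of the library total it was 4 of 4 against 11%. These members are not independent of each other, since miR-378a-5p shares a hairpin with miR-378a-3p, and miR-378c shares 20 bases with it.

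MiR-378i and miR-422a were close to the detection limit in HT29. MiR-378i had 0 and 6 counts in 2D and 1 and 7 in MCS, the count of 0 allowing up to 0.286 CPM in that library. MiR-422a had 4 and 13 counts in 2D and 3 and 7 in MCS. No difference between the cultures was detectable at this depth for either.

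Whether the cell lines responded differently was asked with an interaction term in a fit of the 8 libraries, the HT29 log2 fold change minus that of DLD1. Among the 250 miRNAs tested, 0 passed an adjusted p-value of 0.05 (0%), with 23 (9.2%) under 0.05 before adjustment and 20 called by DESeq2. MiR-378a-5p had the largest difference of the 3 tested members, 1.77 (SE 0.47, p 0.0076 before and 0.202 after adjustment by edgeR's quasi-likelihood test), and it was the member that DESeq2 called, with an adjusted p of 0.00225. The adjusted p ran from 0.00225 to 0.999 over the alternatives, and the difference itself from 1.54 to 2.29. For miR-378a-3p the difference was 0.95 (SE 0.53, adjusted p 0.675) and for miR-378c 0.47 (SE 0.44, adjusted p 0.801) by edgeR's quasi-likelihood test.

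The size of each change in DLD1 moved with the scaling, as did the balance of the calls over all miRNAs. The median log2 fold change of all tested miRNAs was 0.23 with the upper quartile over all miRNAs, 0.11 with RLE size factors, 0.02 with TMM factors, -0.14 with library totals and -0.22 with an upper quartile restricted to the tested miRNAs. With the same settings 103 miRNAs were called higher and 40 lower, then 89 and 50, 76 and 62, 60 and 83, and 49 and 93. Measured from that median the members hardly moved over these 5 scalings, with miR-378a-3p at -0.44, miR-378a-5p between -0.98 and -0.94, and miR-378c at 0.35. The signs were the same under all 5 scalings, and the calls were not. MiR-378a-3p was called under the last of them, at -0.67. In HT29 the distances from the median were 0.63 to 0.78 for miR-378a-3p, 0.89 to 1.04 for miR-378a-5p, 0.87 to 1.06 for miR-378c and 1.05 to 1.08 for miR-378d.

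**Figure D2:**
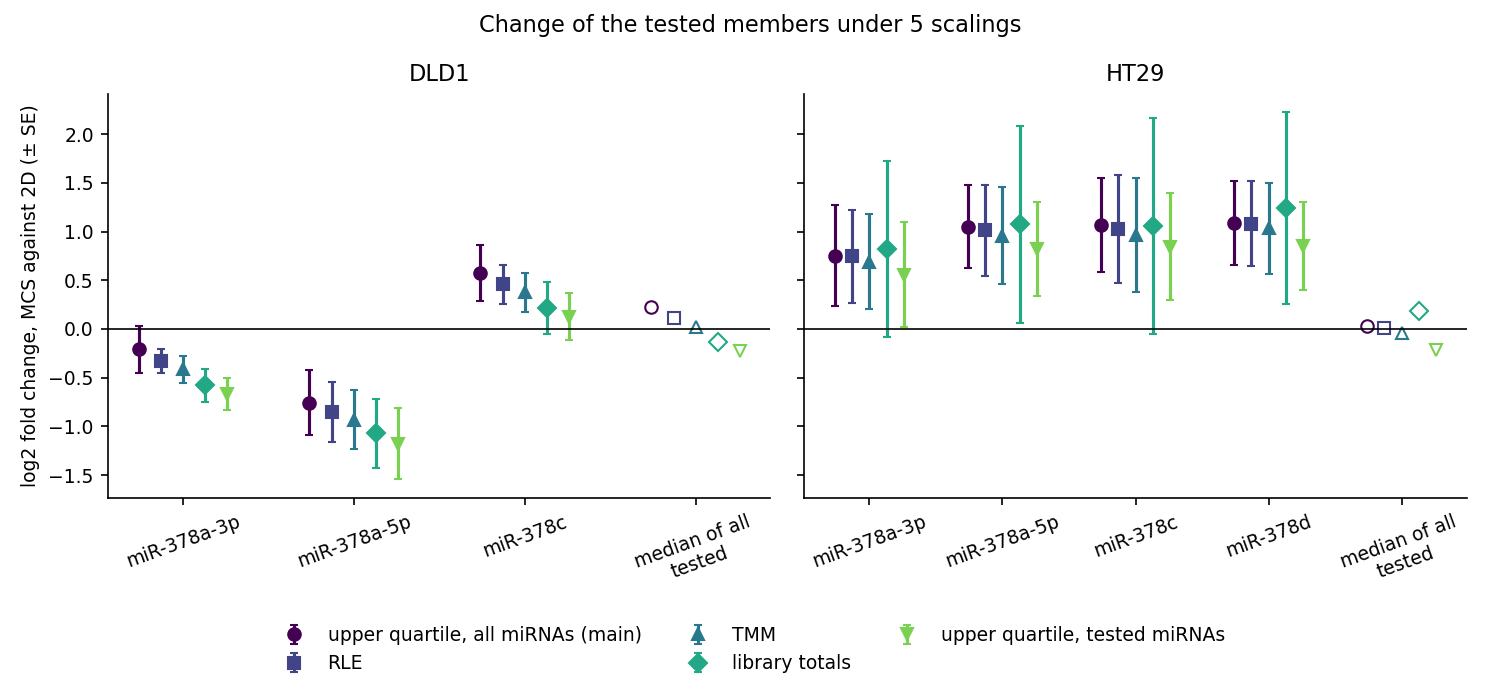
Log2 fold change of MCS against 2D with its SE for the members tested in DLD1 (left) and HT29 (right) under 5 scalings, and open symbols for the median of all tested miRNAs. The DLD1 values shift together with that median, from -0.21 to -0.67 for miR-378a-3p, and the HT29 values have wider SE and stay above 0.

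Ratios between members within a library do not depend on the scaling. The arms of miR-378a come from the same transcript, so their ratio was compared first. The 5p arm made up 0.932% (95% Wilson interval 0.863 to 1.01) and 0.725% (0.677 to 0.776) of the miR-378a counts in DLD1 2D, and 0.699% (0.635 to 0.770) and 0.456% (0.403 to 0.516) in DLD1 MCS. It made up 0.990% (0.793 to 1.24) and 1.40% (1.29 to 1.52) in HT29 2D, and 1.22% (1.08 to 1.38) and 1.77% (1.64 to 1.91) in HT29 MCS. The MCS libraries lay below the 2D libraries in DLD1, by less than the replicates of either culture differed from each other, and overlapped with them in HT29.

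Expressed as 3p counts per 5p count, the ratio was 106.3 and 136.9 in DLD1 2D, 142.0 and 218.4 in DLD1 MCS, 100.0 and 70.3 in HT29 2D and 80.7 and 55.6 in HT29 MCS. The culture effect went in opposite directions, 1.46-fold higher in DLD1 MCS and 0.798-fold in HT29 MCS. Averaged over the cell lines it was 0.11 on the log2 scale, with a p of 0.667 in a two-sided exact permutation test over 36 arrangements of the culture labels within cell lines. The smallest p this design allows is 0.0556, so no ratio could pass 0.05.

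Between the cell lines the arm ratio did not overlap, being lower in all 4 HT29 libraries (55.6 to 100.0) than in all 4 DLD1 libraries (106.3 to 218.4). The difference was -0.96 on the log2 scale, at the smallest possible p of 0.0556 in the two-sided exact permutation test, and 0.148 after adjustment over the 4 ratio tests. The kits of the cell lines differed as well, so this cannot be told apart from the kit.

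MiR-378c stood at 12.4 and 12.1 counts per 1000 miR-378a-3p counts in DLD1 2D and at 21.7 and 20.6 in DLD1 MCS, with means of 12.2 ± 0.163 and 21.1 ± 0.796 (SD, n = 2). In HT29 it stood at 41.3 and 60.2 in 2D and at 54.3 and 72.3 in MCS. The DLD1 cultures were separated by many times their spread, 1.73-fold, and the HT29 cultures overlapped, with a mean ratio of 1.26-fold. Over both cell lines the difference was 0.56 on the log2 scale (exact permutation p = 0.111, adjusted 0.148).

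MiR-378d showed the same pattern against miR-378a-3p. It stood at 1.52 and 1.54 per 1000 in DLD1 2D and at 2.74 and 3.21 in DLD1 MCS, 1.94-fold higher with no overlap. In HT29 it stood at 8.96 and 10.2 in 2D and at 9.46 and 16.4 in MCS, with overlap. Over both cell lines the difference was 0.67 on the log2 scale (exact permutation p = 0.111, adjusted 0.148).

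MiR-422a kept almost the same proportion to miR-378a-3p in DLD1, at 0.554 and 0.552 counts per 1000 in 2D and 0.587 and 0.591 in MCS, from 32 to 62 counts. In HT29 the proportion ranged from 0.146 to 0.519 on 3 to 13 counts. The proportion of miR-378i was between 0.0584 and 0.166 per 1000 in DLD1 and between 0 and 0.191 in HT29.

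**Figure D3:**
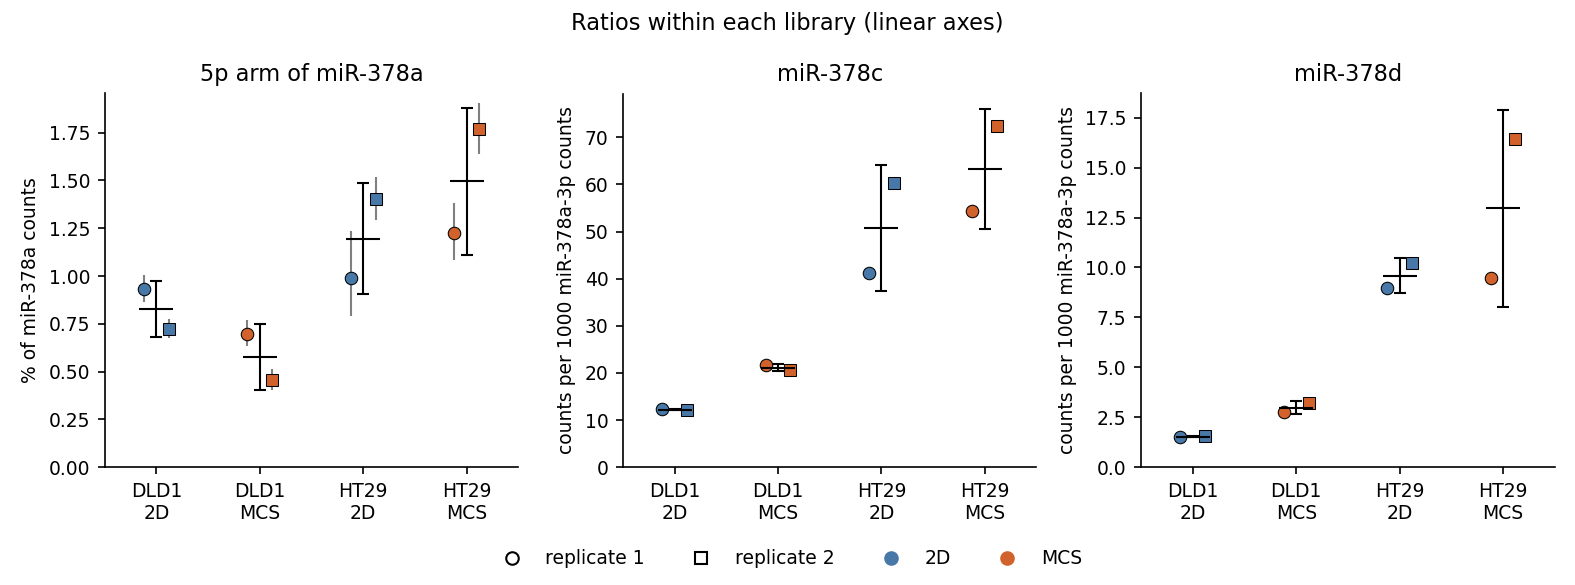
Ratios within each library on linear axes from 0: the 5p arm as % of all miR-378a counts, with 95% Wilson intervals in grey, and miR-378c and miR-378d counts per 1000 miR-378a-3p counts. Symbols are libraries (circles replicate 1, squares replicate 2) and black bars the mean and SD (n = 2). In DLD1 miR-378c goes from 12.2 in 2D to 21.1 in MCS with replicates almost on top of each other, while all HT29 libraries lie higher and further apart.

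Levels were also set between the cell lines, as the mean of both cultures in HT29 minus that in DLD1, with factors over all 8 libraries. Of the 3 members tested in both, 1 was called, miR-378c, against 147 of all 250 tested miRNAs (58.8%). MiR-378c was at 36.4 ± 0.0986 and 53.5 ± 0.932 CPM by these factors in DLD1 2D and MCS and at 75.6 ± 0.984 and 153.6 ± 39.9 in HT29 2D and MCS (SD, n = 2), so that the lowest HT29 library was above the highest of DLD1. The log2 difference was 1.29 (SE 0.22, adjusted p 0.00261 by edgeR's quasi-likelihood test), 2.44-fold. It was 0.63 and not called with library totals alone.

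MiR-378a-3p had the highest levels in DLD1 2D (2974 ± 31.6), followed by HT29 MCS (2540 ± 1140), DLD1 MCS (2531 ± 51.3) and HT29 2D (1545 ± 427.0), and of these the HT29 MCS libraries spanned the values of DLD1 2D and MCS. Its difference between the cell lines was -0.47 (SE 0.26, adjusted p 0.160 by edgeR's quasi-likelihood test). It was called lower in HT29 with library totals alone (-1.23) and with the upper quartile over tested miRNAs (-0.84). Without HT29 MCS replicate 1 it was -0.75. For miR-378a-5p the order was HT29 MCS (36.3 ± 7.26), DLD1 2D (24.8 ± 4.16), HT29 2D (18.1 ± 0.561) and DLD1 MCS (14.7 ± 4.11), neighbours in this order not overlapping, the difference between the cell lines 0.42 (SE 0.24, adjusted p 0.158 by the same test), and its sign turned to -0.23 with library totals alone. Fitted with no filter, miR-378d was 3.57-fold higher in HT29 (log2 1.84, SE 0.34, adjusted p 0.000132), and miR-422a 3.23-fold lower (log2 -1.69, SE 0.65, adjusted p 0.0439, on 3 to 62 counts a library), both by edgeR's quasi-likelihood test. The members sharing a seed thus did not line up between the cell lines, and all these differences carry the kit as well.

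Of the other miR-378 entries, 5 were in the matrix, miR-378b, miR-378e, miR-378f, miR-378g and miR-378h, all with 127 counts or fewer in every library and none reaching the limit for testing. MiR-378f had the most counts, 500 over all libraries for the 398690 of miR-378a-3p. MiR-378g, which carries A6G inside the seed and so pairs with other targets, had 39 and 56 counts in DLD1 2D and 73 and 67 in DLD1 MCS, a log2 fold change of 1.01 (SE 0.60, adjusted p 0.405 by edgeR's quasi-likelihood test with no filter).

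As other miRNAs with a metabolic host gene, miR-33a (in SREBF2) and miR-33b (in SREBF1), which act on cholesterol and fatty acid genes, and miR-103a and miR-107 (in the pantothenate kinase genes, for coenzyme A synthesis) were followed. In DLD1, 3 of these 7 mature miRNAs were tested, 1 was called higher in MCS and 1 lower, against 103 higher and 40 lower of all 346 tested (41.3% in all). MiR-33b-3p fell by 1.06 on the log2 scale (SE 0.35, adjusted p 0.0083 by edgeR's quasi-likelihood test), and it was called under all 5 scalings. It averaged 19.4 CPM of the library total in DLD1 2D and 7.13 in MCS, so it passed the limit of 10 CPM only through 2D, where it was higher. MiR-107 had a log2 fold change of 0.62 (SE 0.23, adjusted p 0.0212 by the same test) and was not called under the other 4 scalings. MiR-103a-3p, nearly identical to miR-107, had 0.21 (SE 0.27, adjusted p 0.526), and its sign turned under 3 scalings. In HT29, 5 of the 7 were tested, 0 were called (0 of all 301 tested miRNAs), and their median was -0.12, against 0.03 for all tested miRNAs.

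In DLD1, 7 of 9 epithelial markers were called higher in MCS and 0 lower, with a median log2 fold change of 1.24. Of all 346 tested miRNAs, 103 were called higher and 40 lower (41.3% in all), with a median of 0.23. With the upper quartile of tested miRNAs only, 5 markers were called higher, and 49 of all tested miRNAs. In HT29, 0 of 9 were called, in a fit that called 0 of 301 miRNAs. The median there was 0.88, against 0.03 for all tested miRNAs. Of the 7 muscle markers only miR-499a-5p was abundant enough to be tested in DLD1. It averaged 5.81 CPM of the library total in DLD1 2D and 15.9 in MCS, so it passed the limit of 10 CPM only through MCS, where it was higher. It was called higher in MCS under all 5 scalings (log2 fold change 1.82, SE 0.36, adjusted p 5.14e-06 by edgeR's quasi-likelihood test). That direction is not independent of the filter. MiR-1-3p, under the limit in DLD1, had a log2 fold change of 3.13 there with no filter (SE 0.50, adjusted p 1.95e-08 by the same test). In HT29 miR-1-3p was tested and not called (0.37, SE 1.27). The muscle list summed to between 5.69 and 9.30 CPM of the library total in DLD1 2D and between 23.6 and 28.6 in DLD1 MCS, and to between 26.1 and 51.2 in HT29 2D and between 36.5 and 93.4 in HT29 MCS. The list for blood, vessel and mesenchyme summed to between 82.5 and 95.2 CPM in DLD1 2D and between 81.7 and 97.4 in DLD1 MCS, and to between 8.67 and 28.1 in HT29 2D and between 44.4 and 79.8 in HT29 MCS. Its sums did not overlap between the cultures of HT29. The 1 marker of the list tested was miR-126-3p in DLD1 (log2 fold change 0.48, SE 0.27) and miR-150-5p in HT29 (2.31, SE 0.52). MiR-150-5p averaged 8.81 CPM of the library total in HT29 2D and 51.0 in HT29 MCS, and so also passed the limit only through MCS. Neither marker was called, in HT29 within a fit that called no miRNA. The part of these markers in the members' values was not tested.

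The miRNAs most like the arms of miR-378a were sought among 247 others tested in both cell lines, by Pearson's r of log2 normalized CPM (1 added) over the 8 libraries after each cell line's mean was removed. Those closest to miR-378a-3p were miR-532-5p (r = 0.993), miR-215-5p (0.848) and miR-148a-3p (0.787). For miR-378a-5p they were miR-3158-3p (0.845), miR-30a-5p (0.784) and miR-660-5p (0.755). The arms had an r of 0.715 with each other, and miR-378c had 0.651 with miR-378a-3p and 0.423 with miR-378a-5p. These are descriptions over libraries that share their scaling factors, with 2 libraries in each group.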

How the data were processed

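Small RNA libraries of DLD1 and HT29 cells in 2D and MCS were grouped by the line, culture and replicate that the labels give. According to the submitters' processing notes, which list CASAVA 1.8.3, cutadapt 1.11, Bowtie2 2.1.0 and edgeR 3.4.2, and to the study's methods, the authors trimmed adapters, discarded reads that were short or of low quality, mapped the remainder to GRCh37 and to miRBase mature sequences, and deposited raw counts per mature miRNA. The study's methods name other versions of cutadapt and Bowtie2 than these notes, and which were used could not be settled. Multi-mapping and strand handling are not given in the sources used here. The deposited single-library tables and the matrix differed in 0 of 12572 values. The 15 rows of the matrix that name no miRNA were left out: they held 2590 counts in HT29 2D replicate 2, 0.00988% of that library, and 0 elsewhere.

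In R 4.3.3, edgeR 4.0.16 (with limma 3.58.1) was run on the counts, with upper quartile factors over miRNAs with at least 1 count in the fitted libraries, a mean of at least 10 CPM and the quasi-likelihood test, fitted over all tested miRNAs. The interaction and the comparison of the cell lines used all 8 libraries and miRNAs passing in both cell lines, and the interaction had no fold rule. Ratios were tested with exact permutations in Python 3.11.15 (numpy 2.4.6, scipy 1.17.1, pandas 2.3.3, matplotlib 3.10.9). P-values of the fits rest on 2 libraries a group, and each miRNA's variance was drawn towards a trend over all tested miRNAs. A member's own spread between replicates therefore enters them at most in part. In the DLD1 fit with the main settings the p-values were those of a variance set almost wholly by the trend. A member's own spread there hardly entered. In the HT29 fit, and in DLD1 with TMM factors, it did enter. P-values and counts of calls are therefore not on the same footing between cell lines or scalings. With 2 against 2, a permutation test within 1 cell line cannot go below 0.333. The fits were tested on simulated data with TMM factors only, not with the upper quartile factors of the results. A member not called in HT29 or in the interaction cannot be taken as unchanged. The alternatives were TMM, RLE, library totals, an upper quartile over tested miRNAs, no filter, 10 CPM in every library, DESeq2 1.42.0, edgeR's exact test, the replicate number as a block, all libraries in 1 fit, no fold threshold, the unadjusted p-value, each library left out, and for ratios 0.5 counts added and all 3p-type members summed.

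The members were picked by name, but they and the lists were chosen with earlier results of these data known. The miRNAs named are the 6 members, the other miR-378 entries, the miRNAs of metabolic host genes, the marker lists, and the 3 miRNAs most like each arm of miR-378a. MiR-10a-5p and miR-21-5p, in none of these lists and chosen after values were seen, are named only for the total of the family share. Hairpin positions and hosts come from GENCODE release 44 lifted to GRCh37, and 4 of the 5 hairpins matched RefSeq base for base, MIR378D1 not being compared.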

Additional observations from a re-analysis of the deposited data

Results flagged for a closer look

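MiR-378a-5p was flagged because both of its MCS libraries lay below both 2D libraries in DLD1 and above both in HT29. Taken by cell line on normalized CPM, 25.4% of all tested miRNAs lay below in DLD1 and 17.9% above in HT29. The share of miRNAs with both was not computed, and the interaction rests on the same values that led to the flag. The difference between the responses, HT29 minus DLD1, was 1.77 on the log2 scale (SE 0.47). It was tested as an interaction and had a p of 0.0076 before and 0.202 after adjustment by edgeR's quasi-likelihood test, so that the difference did not pass the threshold in that fit. DESeq2 called it (1.86, adjusted p 0.00225), as did the fit with the replicate number as a block described below, and over all alternatives the adjusted p ran from 0.00225 to 0.999. Of all 250 miRNAs tested, 23 had an unadjusted p-value under 0.05. The groups had 2 libraries each, too few for single libraries to be examined as outliers.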

How the results depend on the processing

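In DLD1 the number of members called went from 0 to 1 with TMM factors, library totals, 10 CPM in every library, DESeq2 and the unadjusted p-value, to 2 with the upper quartile of tested miRNAs only, and ranged from 0 to 1 with each library left out. In HT29 it was 0 in all alternatives but the block. For the interaction it went from 0 to 1 with DESeq2. Between the cell lines it went from 1 to 2 with that same quartile and with DESeq2 and to 3 with no filter, where 6 members were tested, and ranged from 1 to 2 with each library left out. With library totals the count between the cell lines stayed at 1, but the member called was miR-378a-3p, lower in HT29, and no longer miR-378c. MiR-378a-5p between the cell lines turned to -0.23 with the same totals. The cause was not tested. The arm ratio of miR-378a between cultures, 0.11 on the log2 scale, ranged from -0.045 to 0.27 with each library left out and was -0.045 without DLD1 MCS replicate 2, -0.016 without HT29 2D replicate 2 and -0.024 without HT29 MCS replicate 1. Leaving miR-10a-5p and miR-21-5p out of the total can only raise the family share. It became 0.781% and 0.446% in DLD1 2D and MCS and 0.247% and 0.420% in HT29 2D and MCS, with the same order of the cultures. All other within-line values of the tested members kept their direction in all alternatives run. Over all miRNAs, the 143 calls in DLD1 became 30 with all 8 libraries in 1 fit and 92 without 2D replicate 2, the 0 in HT29 became 15 with no filter, 11 with DESeq2, 5 with the exact test and 12 with the unadjusted p-value, the 0 of the interaction became 1 with TMM, 5 with no filter and 20 with DESeq2, and leaving libraries out gave at most 2 in either. The 147 calls between the cell lines became 498 with no filter, and their 78 higher and 69 lower became 86 and 46 with TMM, 86 and 53 with RLE, 32 and 75 with library totals and 65 and 93 with the narrower quartile. Of 364 values computed under alternatives, 4 changed direction, 36 counts or shares moved, 18 results became called and 1 was no longer called. The 364 include counts of calls and shares, which have no direction to change, so the 4 are not to be read against all of them.

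The labels do not say whether equal replicate numbers mark a shared culture batch, so the fits reported above carry no term for them. Deviations of equal numbers correlated at 0.321 in DLD1 and 0.789 in HT29 over the tested miRNAs. With the replicate number as a block, 1 member was called in DLD1 (miR-378a-5p, adjusted p 0.0336), 3 in HT29 (miR-378a-5p, miR-378c and miR-378d, adjusted p 0.0240, 0.00974 and 0.0215) and 1 in the interaction (miR-378a-5p, 1.76, adjusted p 0.00498), and the calls over all miRNAs went from 0 to 47 in HT29, from 0 to 40 in the interaction and from 143 to 139 in DLD1. For the ratios the block only limited the arrangements permuted, so the differences of 0.11, -0.96, 0.56 and 0.67 could not change. The two-sided exact permutation p-values became 0.625, 0.125, 0.125 and 0.125, in the order of their tests above. MiR-378i and miR-422a were limited by depth.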
